A study of Mus musculus with 12 samples.

Results

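Notch signalling and arterial identity were followed through 10 genes: the receptors Notch1 and Notch4, the ligands Dll1, Dll4, Jag1 and Jag2, the target genes Hey1, Hey2 and Hes1, and the arterial connexin Gja5. The genes were chosen for their place in the pathway, with earlier results of these data known. All 10 are among the 28689 genes of the table, and 9 of them are among the 12467 genes that had at least 1 FPKM (fragments scaled to the length of the gene and the size of the library) in at least 6 of 12 libraries and were tested. Hey2 did not reach that level and is given by its values and an exact test.

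The libraries came from mouse lung endothelial cells (MLECs), which were selected with beads against CD31 and, once confluent, with beads against ICAM-2, and were used at early passages. There were 6 CTR libraries, from VE-CAD-CreERT2-/Sp1 fl/fl/Sp3 fl/fl littermates (WT in the sample labels), and 6 dKO libraries, from VE-CAD-CreERT2+/Sp1 fl/fl/Sp3 fl/fl mice. Both groups carried the floxed alleles of Sp1 and Sp3 and both received tamoxifen. By design they differed in the Cre recombinase, which the VE-cadherin promoter drives in endothelial cells. Presence of Cre and loss of Sp1 and Sp3 cannot be told apart in this design. The mice were male and 6 to 8 weeks old, an age stated for the study's mice as a whole and not for these libraries. The number of mice behind a library was not given, and p-values therefore measure the spread between these libraries. The comparison asks how transcripts of these cells differ when Sp1 and Sp3 are targeted for deletion. Both are zinc-finger factors that bind GC-rich promoters.

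Notch receptors are activated by ligands of the Delta-like and Jagged families on a neighbouring cell. Cleavage by an ADAM protease and then by gamma-secretase frees the intracellular domain, which joins RBPJ in the nucleus and switches on Hes and Hey repressors. In the vessel wall, Dll4, Notch1 and Notch4 are known for arterial specification and for restraining sprouting, Hey1 and Hey2 act as arterial effectors, and Gja5 (connexin 40) forms gap junctions between arterial endothelial cells.

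A library held between 15523054 and 17938286 fragments. Sp1 lay between 8.42 and 12.1 FPKM in dKO and between 19.4 and 23.7 in CTR, a log2 fold change of -0.95 (adjusted p = 5.68e-06, limma with Benjamini-Hochberg adjustment). Sp3 was 27.7 ± 2.31 FPKM (SD, n = 6) in CTR and 25.0 ± 1.64 in dKO, with 2 of 6 dKO libraries below every CTR library (adjusted p = 0.0902, limma with Benjamini-Hochberg adjustment). FPKM of the whole gene thus showed Sp1 lower but not absent in dKO and did not show a loss of Sp3. The match of libraries to groups rests on the column names and Sp1. Endothelial markers were present in every library, while retina markers, looked up because the extraction text of the labels mentions retinas, reached at most 0.329 FPKM.

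The stretch before the transcription start is shown for the genes on which the results turn: Hes1, Hey2 and Gja5, which were higher in dKO, and Dll4, which was the most abundant of the 10 genes in CTR. The sequences were read from GRCm39 at the start of each gene's main transcript in GENCODE and run 5′ to 3′ on the strand of the gene. They lie at chr16:29883877-29884126 (plus strand) for Hes1, chr10:30718829-30719078 (minus) for Hey2, chr3:96939461-96939710 (plus) for Gja5 and chr2:119155920-119156169 (plus) for Dll4. Capitals mark GC boxes (GGGCGG or its complement CCGCCC, the letters that Sp factors are known to bind) and the RBPJ motif (GTGGGAA or its complement TTCCCAC).
Hes1: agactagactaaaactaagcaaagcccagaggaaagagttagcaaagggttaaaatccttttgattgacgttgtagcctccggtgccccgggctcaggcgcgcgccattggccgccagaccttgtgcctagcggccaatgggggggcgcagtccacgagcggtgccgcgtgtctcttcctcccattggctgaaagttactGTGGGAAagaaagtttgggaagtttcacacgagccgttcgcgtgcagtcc
Hey2: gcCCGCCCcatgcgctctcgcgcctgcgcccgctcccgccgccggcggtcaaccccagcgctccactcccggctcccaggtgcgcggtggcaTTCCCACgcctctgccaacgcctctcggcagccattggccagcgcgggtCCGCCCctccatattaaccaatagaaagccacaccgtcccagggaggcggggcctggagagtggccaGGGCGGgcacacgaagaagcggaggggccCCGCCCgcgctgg
Gja5: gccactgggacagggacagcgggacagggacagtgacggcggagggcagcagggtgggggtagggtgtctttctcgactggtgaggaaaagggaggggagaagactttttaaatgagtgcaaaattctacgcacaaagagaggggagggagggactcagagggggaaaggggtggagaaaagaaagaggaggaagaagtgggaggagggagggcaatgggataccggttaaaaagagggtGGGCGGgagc
Dll4: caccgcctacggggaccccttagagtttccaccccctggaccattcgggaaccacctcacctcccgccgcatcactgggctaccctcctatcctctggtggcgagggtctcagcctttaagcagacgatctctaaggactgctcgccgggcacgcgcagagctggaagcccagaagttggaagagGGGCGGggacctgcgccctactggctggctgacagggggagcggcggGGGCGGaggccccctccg

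Searched over the full 250 bases before the start, on both strands and with overlapping matches counted, the RBPJ motif was found in Hes1, Hey1 and Hey2, 1 match each, and in none of the other 7 genes. It is present in 5.56% of the 17366 protein-coding promoters of the same length. A GC box was present in 8 of the 10 genes and in 43.3% of those promoters. Notch1 and Dll1 held 5 boxes each, Hey2 held 4, Hey1 3, Dll4 and Jag2 2, and Jag1 and Gja5 1, while Hes1 and Notch4 held 0. Among the 5 genes called higher in dKO (Gja5, Hes1, Hey1, Notch4 and Jag2), boxes therefore ranged from 0 to 3, and among the 4 tested genes that were not called from 1 to 5. Of the windows, 132 bases in Dll1, 69 in Hey1 and 2 in Notch1 lie in annotated exons of the same gene. The windows of Hes1, Gja5, Notch1 and Dll1 lie inside the annotated span of their gene. These matches describe letters in a window and not bound sites.

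In the comparison of dKO with CTR, 5 of the 9 tested genes had an adjusted p under 0.05, all of them higher in dKO: Gja5, Hes1, Hey1, Notch4 and Jag2. Of all genes tested, 53.1% passed the same threshold, 20.4% higher and 32.6% lower in dKO. The median log2 fold change was 0.35 for the 9 genes and -0.10 for all genes tested. With the study's second threshold added, a log2 change beyond 1.5 in either direction, 0 of the 9 passed in limma, against 1.98% of all tested genes. The study's methods set this threshold for DESeq2, and a figure legend of the study gives a 1.5-fold change instead. Changes here are of log2(FPKM + 1), which understates those of low genes. On the recovered fragments, limma-voom let 1 gene, Gja5, pass both thresholds. At an unadjusted p under 0.05, the 5 genes and Notch1 passed in limma, 6 in all. The share of all tested genes at that threshold was not computed and is at least the 53.1% that passed after adjustment. With median-of-ratios scaling, 50.0% of all genes were called, 25.5% higher and 24.6% lower, and Notch1 joined the 5 genes. In FPKM of single libraries, Hes1 was the only tested gene of the 9 whose groups did not overlap, against 11.3% of all tested genes that were higher in dKO without overlap and 16.1% that were lower.

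**Figure D1:**
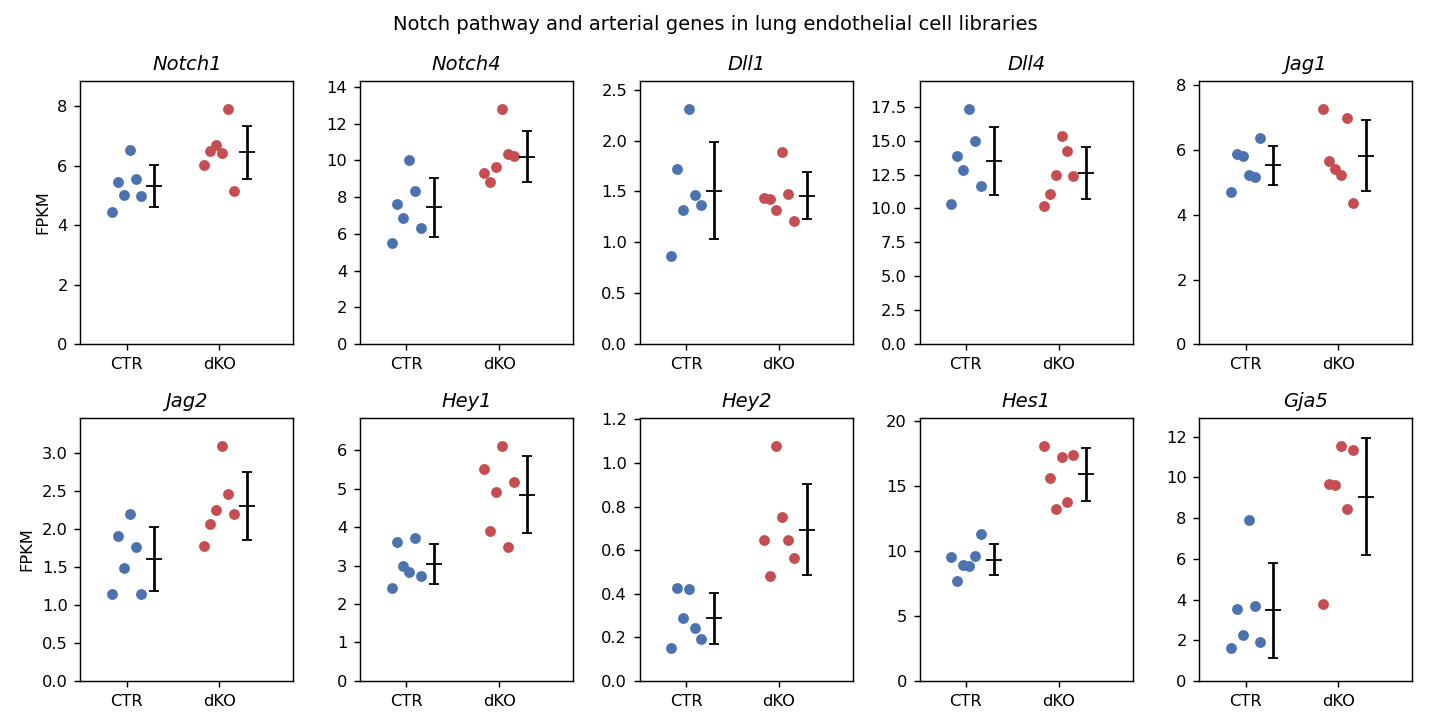
FPKM of the 10 genes in each library (points, y axis, one panel per gene starting at 0) for CTR and dKO, with the mean and SD of 6 libraries beside the points. Hes1 and Hey2 do not overlap between groups, Gja5 has 1 CTR library at 7.92 and 1 dKO library at 3.76, and for Dll1 and Dll4 the ranges of the groups overlap, with the highest library in CTR.

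The endothelial markers moved with the group and are given here because they bear on each result that follows. All 10 markers (Pecam1, Cdh5, Tek, Kdr, Tie1, Icam2, Cldn5, Egfl7, Esam and Erg) were higher in dKO, with a median log2 fold change of 0.82. Their summed level ranged from 198.4 to 330.6 FPKM in CTR and from 374.1 to 496.2 in dKO, without overlap. Markers of other cells moved too. In dKO, 7 of 8 macrophage markers were higher and Marco was lower, and 5 of 6 mesothelial markers were higher. Of 5 tested fibroblast markers, the collagens Col1a1, Col1a2 and Col3a1 were lower, Dcn was higher (6.82 FPKM in CTR and 17.8 in dKO) and Pdgfra did not pass. The summed macrophage level was between 757.6 and 1297 FPKM in CTR and between 1811 and 3810 in dKO. The fibroblast sum was between 2122 and 2689 FPKM in CTR and between 819.9 and 1645 in dKO, and the mesothelial sum between 28.8 and 38.6 in CTR and between 66.3 and 145.9 in dKO. The leukocyte sum was between 1.65 and 4.88 FPKM in CTR and between 6.53 and 10.8 in dKO. The smooth muscle sum, between 429.8 and 1367 FPKM in CTR and between 388.4 and 821.7 in dKO, and the pericyte sum, between 67.3 and 97.5 and between 47.4 and 93.0, overlapped between groups. Within the pericyte list Kcnj8 was lower (-1.41) and Rgs5 (1.17) and Higd1b (0.64) were higher. Of 5 tested lymphatic endothelial markers, 2 were higher, 1 was lower and 2 did not pass. The lower one, Mmrn1, was at 0 FPKM in every dKO library and between 8.46 and 19.3 FPKM in CTR, and the cause was not tested. No marker on these lists was at 0 in all 12 libraries. In bulk libraries, a different number of cells of a type and a different amount of RNA per cell cannot be told apart, and the part of cell composition in the differences below was not tested. Each gene is therefore also given centred on the mean log2 level of the 10 endothelial markers of its library, a scale chosen after the data were seen on which the median of all tested genes is -0.91 and 86.9% of them are lower in dKO.

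Of the receptors, Notch4, which is largely restricted to endothelium, was between 5.52 and 10.1 FPKM (median 7.24) in CTR and between 8.84 and 12.8 (median 9.95) in dKO. The groups overlapped through CTR replicate 4, the highest CTR library, and 3 of 6 dKO libraries lay above it. The means were 7.45 ± 1.61 and 10.2 ± 1.39 FPKM (SD, n = 6 each), with a log2 fold change of 0.42 (SE 0.12, 95% interval 0.16 to 0.68, adjusted p = 0.0116, limma with Benjamini-Hochberg adjustment).

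Notch1, the receptor most studied in arterial specification, was between 4.45 and 6.54 FPKM (median 5.24) in CTR and between 5.16 and 7.91 (median 6.48) in dKO. Here 2 of 6 dKO libraries exceeded every CTR library. The log2 fold change of 0.24 (SE 0.09, 95% interval 0.03 to 0.44) had an adjusted p of 0.0509 in limma with Benjamini-Hochberg adjustment and did not pass. It passed without CTR replicate 4 (0.29, adjusted p = 0.0175) or without dKO replicate 6 (0.29, adjusted p = 0.0183). Over 26 alternative settings other than the centring the adjusted p ranged from 0.00574 to 0.125 and 9 settings passed.

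The other receptors, Notch2 and the mural-cell receptor Notch3, did not pass, with Notch2 at 13.4 ± 0.88 and 14.6 ± 2.22 FPKM and Notch3 at 8.92 ± 2.97 and 9.11 ± 2.61 in CTR and dKO (SD, n = 6 each). Summed over the 4 receptors, a library held between 28.2 and 43.9 FPKM in CTR and between 34.3 and 49.2 in dKO. Notch4 made up between 17.5% and 24.3% of that sum in CTR and between 21.0% and 29.6% in dKO, and Notch1 between 13.9% and 17.7% and between 14.5% and 17.6%. The receptor makeup thus overlapped between groups for both genes.

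Among the ligands, Dll4, the main Delta-like ligand of arteries and tip cells, was between 10.3 and 17.3 FPKM (median 13.3) in CTR and between 10.2 and 15.3 (median 12.4) in dKO. The ranges overlap, no dKO library lay above the CTR libraries and 1 lay below them. Its means were 13.5 ± 2.49 and 12.6 ± 1.92 FPKM (SD, n = 6 each), and the log2 fold change of -0.08 had a 95% interval from -0.35 to 0.18 (adjusted p = 0.581, limma with Benjamini-Hochberg adjustment). With limma-voom it was 0.0017. Dll4 exons share 616 bases with Gm14207 on the opposite strand, which was at 1.58 FPKM in CTR and 1.68 in dKO.

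Dll1, the other activating Delta-like ligand here, was low, between 0.871 and 2.31 FPKM (median 1.42) in CTR and between 1.21 and 1.89 (median 1.43) in dKO. All dKO libraries lay inside the CTR range. The log2 fold change was -0.01 (95% interval -0.27 to 0.25, adjusted p = 0.94, limma with Benjamini-Hochberg adjustment), and its sign turned under other scalings, for example to 0.04 with median-of-ratios scaling. Exons of Dll1 share 1369 bases with Fam120b on the opposite strand, which was at 9.04 and 8.15 FPKM, and the use of strand in counting is not given, so reads of the pair may be mixed.

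Jag1, a Jagged ligand made by endothelial and smooth muscle cells, was between 4.72 and 6.37 FPKM (median 5.52) in CTR and between 4.38 and 7.26 (median 5.54) in dKO. Of the 6 dKO libraries, 2 lay above and 1 below all CTR libraries. The dKO libraries were more spread than the CTR libraries (SD 1.10 against 0.60), and the log2 fold change was 0.05 (95% interval -0.17 to 0.28, adjusted p = 0.69, limma with Benjamini-Hochberg adjustment). Without dKO replicate 1, the highest, it was -0.01.

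Jag2, the second Jagged ligand, was the single ligand called. It was between 1.15 and 2.195 FPKM (median 1.62) in CTR and between 1.77 and 3.09 (median 2.22) in dKO. The groups overlapped, and 4 of 6 dKO libraries lay above the highest CTR library, dKO replicate 6 by less than the printed digits. The log2 fold change was 0.35 (SE 0.12, 95% interval 0.09 to 0.61, adjusted p = 0.0258, limma with Benjamini-Hochberg adjustment). This call was lost without CTR replicate 1 (0.30, adjusted p = 0.0555), CTR replicate 6 (0.30, adjusted p = 0.0558) or dKO replicate 4 (0.28, adjusted p = 0.0574).

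Summed, the 4 ligands were between 17.1 and 27.0 FPKM in CTR and between 20.2 and 25.6 in dKO. Dll4 was the largest part in every library, between 56.7% and 64.1% in CTR and between 49.3% and 61.4% in dKO. The share of Jag2 was between 5.59% and 8.14% in CTR and between 8.55% and 12.1% in dKO, so that here the groups did not overlap.

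All 3 target genes were higher in dKO. Hes1, a repressor switched on by Notch and by other signals, was at 9.55, 7.70, 8.90, 8.85, 9.58 and 11.3 FPKM in CTR replicates 1 to 6 and at 18.1, 15.6, 13.2, 17.2, 13.8 and 17.4 in dKO replicates 1 to 6. Every dKO library lay above every CTR library. The means were 9.31 ± 1.18 and 15.9 ± 2.03 FPKM (SD, n = 6 each), a log2 fold change of 0.71 (SE 0.10, 95% interval 0.50 to 0.92, adjusted p = 6.67e-05, limma with Benjamini-Hochberg adjustment). The exact two-sided permutation test gave p = 0.00216, the smallest that splits of 12 libraries into 6 and 6 allow.

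Hey1, an arterial repressor and direct RBPJ target, was between 2.41 and 3.71 FPKM (median 2.91) in CTR and between 3.48 and 6.11 (median 5.05) in dKO. Here 5 of 6 dKO libraries lay above all CTR libraries, the exception being dKO replicate 5. The log2 fold change was 0.52 (SE 0.12, 95% interval 0.26 to 0.78, adjusted p = 0.0029, limma with Benjamini-Hochberg adjustment).

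Hey2, its partner in arterial fate, was scarce, at 0.150, 0.425, 0.289, 0.424, 0.242 and 0.192 FPKM in CTR replicates 1 to 6 and at 0.645, 0.481, 1.08, 0.753, 0.647 and 0.563 in dKO replicates 1 to 6. These values rest on 12 to 34 fragments in a CTR library and 39 to 87 in a dKO library. The groups did not overlap, and the ratio of the means was 2.42. In the exact two-sided permutation test p was 0.00216, again the smallest possible. With no filter, limma gave a log2 fold change of 0.393 (adjusted p = 0.00486, Benjamini-Hochberg adjustment). With a pseudocount of 0.1 as well, a setting added after the data were seen, it was 1.06 (adjusted p = 0.00653, same adjustment). The size of the change thus depends on the pseudocount.

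The related target Heyl, known from mural cells, was at 14.97 ± 2.68 FPKM in CTR and 15.5 ± 5.15 in dKO (SD, n = 6 each) and did not pass. As a share of the sum of Hey1, Hey2, Heyl and Hes1, Hes1 was between 26.5% and 46.7% in CTR and between 38.0% and 59.8% in dKO. The share of Heyl was between 41.3% and 59.7% in CTR and between 19.9% and 50.1% in dKO. The summed level of these targets was between 24.2 and 29.2 FPKM in CTR and between 30.2 and 45.3 in dKO, without overlap.

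Gja5 had the largest fold change of the 9 tested genes. It was at 1.598, 3.53, 2.27, 7.92, 3.68 and 1.89 FPKM in CTR replicates 1 to 6 and at 3.76, 9.66, 9.62, 11.6, 8.44 and 11.4 in dKO replicates 1 to 6. CTR replicate 4 stood above the other CTR libraries, dKO replicate 1 below the other dKO libraries, and 5 of 6 dKO libraries exceeded every CTR library. The means were 3.48 ± 2.34 and 9.07 ± 2.85 FPKM (SD, n = 6 each), a log2 fold change of 1.23 (SE 0.30, 95% interval 0.59 to 1.88, adjusted p = 0.0041, limma with Benjamini-Hochberg adjustment). Without CTR replicate 4 it was 1.46 and without dKO replicate 1 it was 1.44. Gja5 exons share 165 bases with Gpr89 on the opposite strand, which was at 4.42 and 3.67 FPKM.

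Levels per gene length, as FPKM gives them, placed Dll4 first in CTR, followed by Hes1, Notch4, Jag1, Notch1, Gja5, Hey1, Jag2, Dll1 and Hey2. In dKO the order was Hes1, Dll4, Notch4, Gja5, Notch1, Jag1, Hey1, Jag2, Dll1 and Hey2. In both groups, neighbours in the order overlapped over libraries except at Hey1 and Jag2 and at Dll1 and Hey2. Hes1 and Dll4 thus changed places at the top, and Gja5 moved above Jag1 and Notch1, each among overlapping neighbours.

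Centring on the endothelial markers by construction lowers each log2 fold change by about 0.819, so any smaller rise becomes negative. On the centred scale the median of all tested genes was -0.91, and Gja5 alone of the 9 genes stayed above 0. Of the 9 genes, 6 were lower in dKO with an adjusted p under 0.05, against 86.9% of all tested genes, and 0 were higher, against 2.43% (89.4% in either direction). Without adjustment, 0 of the 9 were higher either, and the share of all tested genes was not computed for this.  Dll4 was lowest, with a log2 fold change of -0.90 (adjusted p = 2.67e-06), followed by Dll1 at -0.83, Jag1 at -0.77, Notch1 at -0.58, Jag2 at -0.47 and Notch4 at -0.40, all by limma with Benjamini-Hochberg adjustment. Hey1 at -0.30 (adjusted p = 0.0805), Hes1 at -0.11 (adjusted p = 0.543) and Gja5 at 0.42 (adjusted p = 0.093) did not pass in the same limma fit with Benjamini-Hochberg adjustment. Notch1, Notch4, Jag1, Jag2, Hey1 and Hes1 thus changed sign between the scales, while Gja5 stayed higher, with an interval on the centred scale from -0.06 to 0.90.

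**Figure D2:**
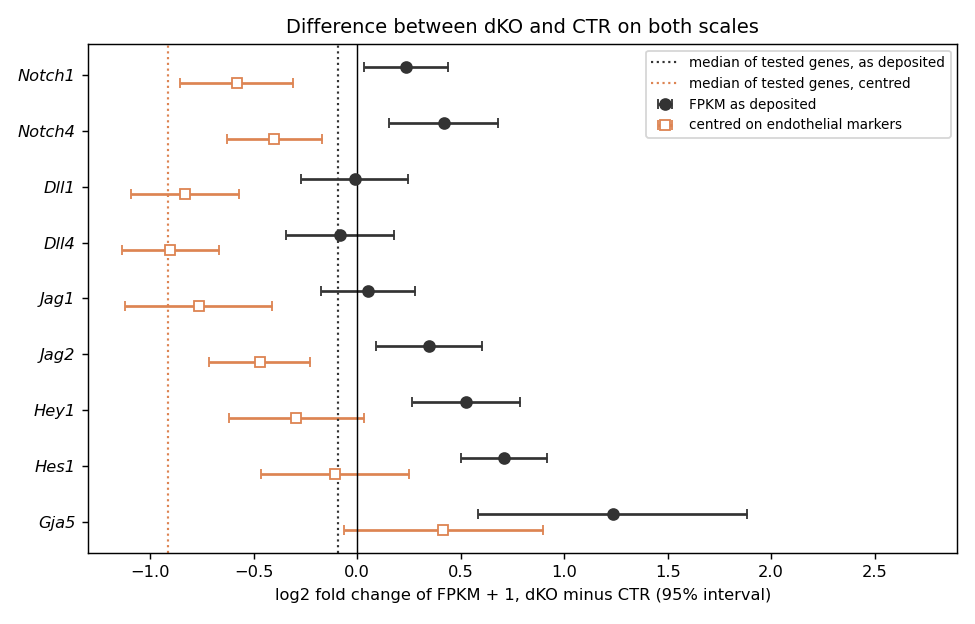
Log2 fold change of FPKM + 1 (x axis, dKO minus CTR, with 95% intervals) of the 9 tested genes from the deposited FPKM (filled circles) and centred on the endothelial markers (open squares), with dotted lines at the median of all tested genes on each scale (-0.10 and -0.91). On the deposited scale the points run from -0.08 for Dll4 to 1.23 for Gja5. The centred scale by construction lowers each point by about 0.819, and there Gja5 alone is above 0.

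The same can be read from single libraries as a percentage of the summed FPKM of the 10 markers. That sum was itself higher in dKO without overlap, so a gene of equal FPKM has a lower percentage there. The share of all tested genes without overlap on this measure was not computed. Dll4 amounted to between 5.20% and 5.71% of that sum in CTR and to between 2.51% and 3.33% in dKO, so its percentage varied little among CTR libraries and was lower, without overlap, in dKO. Notch4 was between 2.78% and 3.12% in CTR and between 2.16% and 2.58% in dKO, also without overlap. Gja5 was between 0.806% and 2.40% in CTR and between 0.926% and 2.58% in dKO, and its medians were 1.16% and 2.42%. Hes1 had nearly equal medians of 3.73% and 3.69%.

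Within the 6 CTR libraries, 5 of the 10 genes rose with the endothelial marker level by Pearson's r, and 0 passed by rank. The share of all tested genes that rose with the markers was not computed, so this count is no result about the 10 genes. Over 20 relations computed, 10 genes in each group, Pearson's r had a Benjamini-Hochberg adjusted exact permutation p of 0.0278 for Notch1 (r = 0.933), Notch4 (0.946), Dll4 (0.941), Jag2 (0.979) and Gja5 (0.975) in CTR and for Notch4 (0.842) in dKO. Their raw exact p lay between 0.00278 and 0.00833. Spearman's rho was 0.886 for Notch1, Notch4, Dll4 and Gja5 and 0.943 for Jag2 in CTR, and 0.943 for Notch4 in dKO, with an adjusted exact permutation p of 0.111 for each, so 0 of 20 passed by rank. Without the 2 libraries farthest from the median marker level, r in CTR was 0.971 for Notch1, 0.934 for Notch4, 0.927 for Dll4, 0.998 for Jag2 and 0.98 for Gja5, and in dKO 0.806 for Notch4. The high Gja5 value of CTR replicate 4 thus belongs to the CTR library with the highest marker level. Hes1 had r = -0.618 in CTR (exact permutation p = 0.174, adjusted p = 0.316), and Gja5 had r = 0.276 in dKO (exact permutation p = 0.719, adjusted p = 0.852). Whether slopes differ between groups was not tested.

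**Figure D3:**
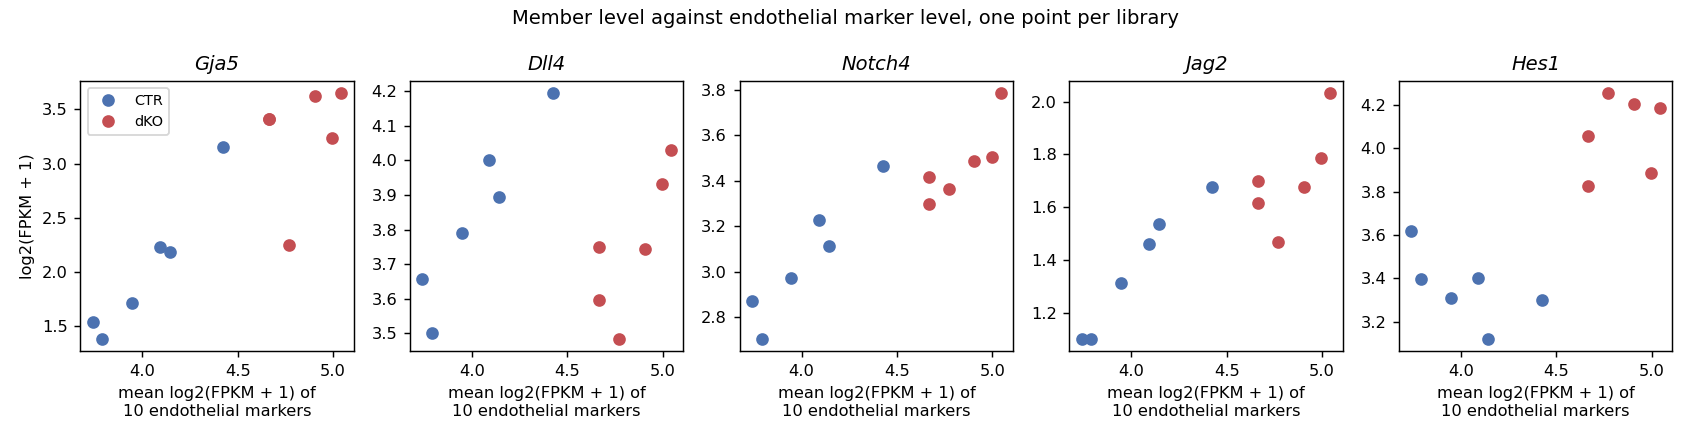
Level of Gja5, Dll4, Notch4, Jag2 and Hes1 (y axis, log2(FPKM + 1)) against the mean log2(FPKM + 1) of the 10 endothelial markers (x axis), one point per library, CTR and dKO in different colours. The markers range from 3.74 to 4.43 in CTR and from 4.67 to 5.04 in dKO, and the heights of Dll4 overlap between groups at these different marker levels, its highest point being a CTR library.

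Of 39 tested genes of a list of other Notch components, 12 were higher and 8 lower in dKO (adjusted p under 0.05, limma with Benjamini-Hochberg adjustment) and 19 did not pass, with a median log2 fold change of 0.05. The called share is near the 53.1% of all tested genes, so the count is no result about this list. Dtx1, a ubiquitin ligase of the Notch pathway that is itself a known Notch target, was at 0.220 ± 0.083 FPKM in CTR and 2.04 ± 0.46 in dKO (SD, n = 6 each), a log2 fold change of 1.31 on the log2(FPKM + 1) scale. The fringe enzymes, which add sugars to Notch and tune its choice of ligand, were split, with Lfng (0.88) and Mfng (0.56) higher and Rfng, at 9.41 FPKM in CTR and 8.05 in dKO, lower. Bhlhe41, a repressor related to the Hes family, was higher (0.53).

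Lower were Mib2 (-0.63), a ligase that drives ligand uptake, and Tle1 (-0.59), a corepressor that Hes proteins recruit. Of the gamma-secretase subunits, Ncstn was higher, at 37.2 ± 2.31 FPKM in CTR and 46.0 ± 1.89 in dKO (SD, n = 6 each), and so were Psen2, Psenen and Aph1b, while Aph1a was at 21.6 and 21.5. Furin, the protease that cuts the Notch precursor, was also higher, at 22.0 FPKM in CTR and 32.1 in dKO (means, n = 6 each). Rbpj, the DNA-binding partner of the pathway, had a log2 fold change of -0.09 (adjusted p = 0.557, limma with Benjamini-Hochberg adjustment), and the feedback inhibitor Nrarp, at 0.501 FPKM in CTR and 0.701 in dKO, was below the level for testing. Centred on the endothelial markers, 1 of the 39 tested genes of this list was higher and 35 were lower. Of all tested genes, 2.43% were higher and 86.9% lower on that scale, so this count too is no result about the list.

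Of 23 tested other arterial genes, 13 were higher and 1 lower, against 20.4% higher and 32.6% lower among all tested genes, with a median log2 fold change of 0.36. Centred on the endothelial markers, 2 were higher and 10 lower, against 2.43% higher and 86.9% lower among all tested genes on that scale. The lower gene, Ltbp4 (-0.39), did not pass with median-of-ratios scaling (adjusted p = 0.111), quantile normalization (0.0652), limma-voom (0.106) or the exact permutation test (0.0636), nor without CTR replicate 2 (0.0684), 4 (0.0678) or 5 (0.0652) or dKO replicate 1 (0.0709), 2 (0.0607), 3 (0.0727) or 6 (0.0678). The transcription factor Sox18 was at 13.9 ± 2.17 FPKM in CTR and 36.6 ± 4.12 in dKO (SD, n = 6 each), and Efnb2, the arterial ephrin, at 7.10 ± 1.07 and 15.6 ± 2.87, both without overlap. Gkn3 (1.44), Fbln5 (0.95), Depp1 (0.94) and Epas1 (0.92) completed the 6 largest changes. Gja4, the connexin that pairs with Gja5, rose from 1.84 ± 0.39 to 3.45 ± 0.53 FPKM, and Sox17, an arterial factor upstream of Notch genes, from 5.32 ± 0.91 to 6.65 ± 1.03, the latter with an adjusted p of 0.0491 in limma with Benjamini-Hochberg adjustment. On the centred scale Efnb2 was at 0.21 and Gja4 at -0.17, neither past the threshold, and Sox17 was at -0.54.

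Of 10 tested venous genes, 7 were higher and 1 lower, against the same 20.4% and 32.6%. When centred on the endothelial markers, 1 was higher and 5 lower, against 2.43% and 86.9% of all tested genes. The median log2 fold change as deposited was 0.73. Lrg1 had the largest change (1.72), followed by Flt4 (1.05), Bst1 (1.03), Emcn (0.98) and Selp (0.89), and Ephb4, the venous receptor of Efnb2, was at 17.2 ± 1.76 FPKM in CTR and 26.1 ± 4.01 in dKO. The one lower gene was Nr2f2, the factor known for venous fate and for repressing Notch, at 21.5 FPKM in CTR and 17.1 in dKO (mean, n = 6 each, log2 fold change -0.32, adjusted p = 0.0113, limma with Benjamini-Hochberg adjustment). This call was lost with median-of-ratios scaling (adjusted p = 0.0652) and with limma-voom (adjusted p = 0.0636). Higher levels on the deposited scale were thus found on both the arterial and the venous list. The counts turned on the centred scale, which by construction lowers each gene.

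**Figure D4:**
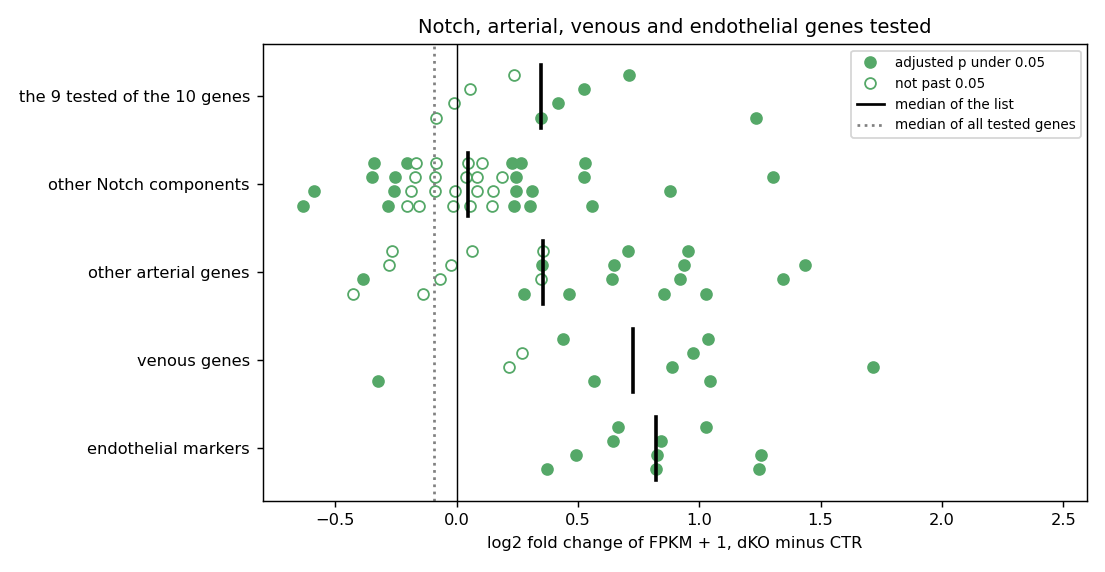
Log2 fold change of FPKM + 1 (x axis, dKO minus CTR) of each tested gene in the 10-gene set, the other Notch components, the other arterial genes, the venous genes and the endothelial markers, filled where the adjusted p was under 0.05, with a bar at each list's median and a dotted line at the median of all tested genes. The medians are 0.35, 0.05, 0.36, 0.73 and 0.82.

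For the tested genes, the 2 tested genes with the closest pattern were sought by the root mean square difference of log2(FPKM + 1), each gene centred on its mean over the 12 libraries. Dll4 was closest to Amigo1 (0.0684) and Zfand5 (0.0882), Notch1 to Zbtb7a (0.0674) and Adgrl2 (0.0797), Notch4 to Cpq (0.0836) and Tbkbp1 (0.0881), and Jag2 to Arrdc3 (0.0798) and Zbtb4 (0.084). Hey1 was closest to Lrrc75a (0.0834) and the chemokine receptor Cxcr4 (0.15), which is itself on the arterial list, and Hes1 to Psmd8 (0.11) and Smad7 (0.112). Dll1 was closest to Exoc8 (0.0958) and Sun2 (0.0971). Gja5 had the most distant neighbours, Jam2 (0.213) and Rgs5 (0.246).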

How the data were processed

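RNA of MLECs was measured in 6 CTR and 6 dKO libraries. The columns named after tamoxifen, which both groups received, were taken as dKO because the other columns are named CTR. The labels do not spell out the column names, and Sp1 was lower in the columns taken as dKO. The authors used Trimmomatic for trimming and STAR for alignment to mm39, kept uniquely aligned reads and aligned these again, and deposited FPKM values. The submitters' processing notes list Bowtie2 2.2.3, HISAT2 2.1.0, TopHat2 and DESeq2. The counting program, annotation and use of strand are not given in the sources used here.

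Genes that reached 1 FPKM in 6 or more of the 12 libraries were tested on log2(FPKM + 1), a scale that understates changes of low genes, with limma 3.58.1 in R 4.3.3 (eBayes with a trend, no covariates) and Benjamini-Hochberg adjustment over all 12467 genes. Permutation tests were exact and two-sided, over every split into 6 and 6 libraries. Of 28689 genes, 27706 (96.6%) were matched to GENCODE on GRCm39 (the same build as mm39), which gave symbols. For all 28689 genes (100% of values) whole fragments were recovered from FPKM, to within 0.02 fragments, so that 1 fragment on 2 kb was worth 0.0279 to 0.0322 FPKM. These served for depth and for an added fit with limma-voom under median-of-ratios scaling. Fragment numbers differed beyond counting noise in each of the 30 pairs within groups (lowest chi-square per degree of freedom 12.2). Fits were also run on simulated data in which few genes changed, up and down in equal number. That run does not cover broad shifts between groups such as those in these libraries. Tables and plots were made with SciPy 1.17.1, NumPy 2.4.6, pandas 2.3.3 and Matplotlib 3.10.9 under Python 3.11.15.

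The genes and lists were chosen with earlier results of these data known. By rule, the text names all 10 genes, the 6 largest called changes of each context list, Notch2, Notch3, Rbpj, Heyl, Nrarp, Efnb2, Gja4, Sox17, Nr2f2 and Ephb4, and for each tested gene its 2 closest genes, except for items withheld, which are not reported here. Rfng, Furin, Ltbp4, the single macrophage, fibroblast, pericyte and lymphatic markers and the gamma-secretase subunits were named after their values were seen. Alternatives were other pseudocounts, filters, scalings, variance models, a block on the replicate number, and each library left out in turn.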

Additional observations from a re-analysis of the deposited data

Results flagged for a closer look

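Gja5 in CTR replicate 4 was at 7.92 FPKM, while the other CTR libraries lay between 1.60 and 3.68. The gap to the nearest library was 0.67 of the range of the group, above the limit for 6 values in Dixon's test. Of 20 groups examined this was the 1 that passed, and about 1 would by chance. The same library had the highest endothelial marker level of the CTR libraries, at a sum of 330.6 FPKM.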

How the results depend on the processing

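Of the 10 genes, 5 were called. Under a filter of 5 FPKM in 6 or more libraries, 3 were called of 6 tested, and leaving out 1 library at a time gave 4 to 6 calls. The number past both thresholds was 0, and 1 (Gja5) with a pseudocount of 0.01 or with limma-voom. It was 0 under each left-out library. The other Notch components gave 20 calls among 39 tested, and 17 to 20 with a library left out. Centred on the endothelial markers they gave 36, where 89.4% of all tested genes were called. Arterial calls were 12 to 14 and venous calls 7 to 9 with a library left out. Notch4, Hes1 and Gja5 passed in all 26 alternatives other than the centring, and Hey1 in all 25. Jag2 passed in 20 of 25 and was lost with no filter (adjusted p = 0.059). Centring on the endothelial markers turned Notch1 (-0.583), Notch4 (-0.401), Jag1 (-0.766), Jag2 (-0.471), Hey1 (-0.295) and Hes1 (-0.109), on a scale that by construction lowers each gene by about 0.819. Dll1 turned positive with quantile normalization (0.0379), median-of-ratios scaling (0.0409), array weights (0.018) and limma-voom (0.0919), which also turned Dll4 (0.0017). With 1 library left out, Dll1 ran from -0.0924 to 0.072 and Jag1 from -0.00524 to 0.119. The cause of the other changes was not tested. Same-numbered libraries of the groups correlated between -0.1083 and 0.565, and 2 of 6 CTR libraries correlated best with their own number, so the numbers were not taken to pair the libraries. With the replicate number as a block, 6 of the 9 genes were called, Notch1 (adjusted p = 0.0339) in addition. Depth limits Hey2 and Dll1 most, with 12 to 170 fragments per library.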
